A study of Homo sapiens with 12 samples.

Results

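The 9 genes CCN1, CCN2, ANKRD1, AMOTL2, LATS2, AJUBA, TAGLN, THBS1 and SKIL were followed in HepG2 cells exposed to 2,4-D, as known targets or regulators of the YAP, SRF and TGF-beta pathways, which couple the actin cytoskeleton and cell surface signals to transcription. They were chosen by symbol from the 60612 gene rows of the count table, each symbol matched 1 row, and all 9 were among the 17779 genes with enough counts to be tested. HepG2 is an established human liver cancer line that keeps many hepatocyte functions, and 2,4-D (2,4-dichlorophenoxyacetic acid) is a synthetic auxin used as a herbicide. The 4 groups of 3 replicates were untreated cells (0 min) and cells exposed to 0.001 µM 2,4-D for 10, 30 or 360 min, and cells of every group were detached with trypsin-EDTA before RNA was extracted. Untreated cells were sampled at 0 min alone in the data used here, so exposure and elapsed time cannot be told apart.

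YAP and its relative TAZ are coactivators that enter the nucleus when the Hippo kinases, LATS1 and LATS2 among them, are inactive, and they bind DNA through the TEAD factors. SRF is a DNA-binding factor whose coactivators MRTFA and MRTFB are released as actin monomers are built into filaments, and it controls many genes for actin-binding proteins. TGF-beta signals through receptor kinases to SMAD2 and SMAD3, and the pathway induces matrix genes together with its own inhibitors. CCN1 and CCN2 encode secreted matricellular proteins that bind integrins and are classic YAP targets, CCN1 being an immediate early gene as well. ANKRD1 encodes an ankyrin repeat protein of muscle nuclei and sarcomeres. AMOTL2 and the kinase LATS2 are YAP targets that act back on YAP as inhibitors, whereas AJUBA is a LIM domain protein that restrains LATS kinases. TAGLN encodes transgelin, an actin-binding protein and standard SRF target. THBS1 encodes thrombospondin, a matrix protein able to activate latent TGF-beta, and SKIL encodes SnoN, a repressor of SMAD-driven transcription that TGF-beta itself induces.

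RefSeq promoter windows on GRCh38.p14 were found for 7 of the 9 genes, with 9 windows in all because AMOTL2 and AJUBA each have a pair of starts. The 250 bases before each start were searched on both strands for GGAATG, the core of the TEAD motif. The window of CCN2 is shown whole because it holds 3 copies, in capitals:
CCN2, the bases before its start (chr6:131951373-131951622, minus strand): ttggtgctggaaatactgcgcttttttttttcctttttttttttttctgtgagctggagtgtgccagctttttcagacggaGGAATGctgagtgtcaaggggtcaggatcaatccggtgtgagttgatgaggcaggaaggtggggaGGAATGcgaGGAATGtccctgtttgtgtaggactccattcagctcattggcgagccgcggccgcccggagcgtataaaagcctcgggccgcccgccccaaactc
The other matches are shown as 30 bases around the motif, again in capitals, for comparison (CATTCC is the same motif on the opposite strand):
ANKRD1, first site, chr10:90921290-90921319, minus strand: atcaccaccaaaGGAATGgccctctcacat
ANKRD1, the other site, chr10:90921198-90921227, minus strand: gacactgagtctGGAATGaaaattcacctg
THBS1, chr15:39581021-39581050, plus strand: gaggaatccccaGGAATGcgagcgcccctt
AJUBA, second start, chr14:22976884-22976913, minus strand: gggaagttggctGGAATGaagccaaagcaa
AMOTL2, second start, chr3:134374499-134374528, minus strand: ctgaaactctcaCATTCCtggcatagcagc

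GGAATG was present in 5 of the 9 windows, each of a different gene, and in 11.9% of all 35116 RefSeq windows of this length. At least 3 copies, as in CCN2, stood in 0.0826% of all windows, and at least 2, as in ANKRD1, in 0.94%. The second ANKRD1 site and the AJUBA and AMOTL2 sites lie before a RefSeq start but inside the span that GENCODE 29 gives these genes. The copies in CCN2 began 169, 104 and 95 bases before the start, and those in ANKRD1 220 and 128 bases before it. CAGAC, the short SMAD motif, was found in 6 of the 9 windows and in 38.0% of all windows, and 1 of its matches in ANKRD1 shares 1 base with a TEAD match. TGANTCA, the AP-1 motif, was found for ANKRD1 only, 195 bases before the start (6.57% of all windows). No window of the 7 genes held the SRF CArG box, which 1.16% of all windows did. CCN1 and TAGLN had no window, so the standard SRF target of the set was not searched. Such matches describe letters in a window and show no binding.

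In GENCODE 29 on GRCh38, where CCN1 and CCN2 carry their older symbols CYR61 and CTGF, CCN1 lies at chr1:85580761-85583962 and TAGLN at chr11:117199321-117204782, both on the plus strand. CCN2 lies at chr6:131948176-131951373, ANKRD1 at chr10:90912096-90921276 and AJUBA at chr14:22971174-22982642, all on the minus strand. AMOTL2 (chr3:134355874-134375479) and LATS2 (chr13:20973032-21061547) are also on the minus strand, and THBS1 (chr15:39581079-39599466) and SKIL (chr3:170357678-170396835) on the plus strand. All 9 are protein-coding genes, and counts were taken per gene.

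The 12 libraries held 29766148 to 83539763 counts each, and the counts behind a value of the 9 genes ran from 343 to 22159. Levels are TMM-scaled CPM (a gene's counts relative to all counts of its library), and changes are log2 fold changes ± standard error (SE) from edgeR's quasi-likelihood test, called at an adjusted p under 0.05 over all genes tested. All 10 hepatocyte markers examined were detected in every library, with a summed level of 28500 to 33000 CPM, and 7 fibroblast and stellate cell markers summed to 2.57 to 3.72 CPM in untreated cells and 1.9 to 2.42 CPM at 360 min. PDGFRB made up nearly all of that sum and was lower at 360 min (-0.5 ± 0.16, adjusted p = 0.048), in the direction of the 5 members that fell, while COL1A2 and DCN were at 0 in all 12 libraries. Endothelial markers summed to 1.29 to 1.87 CPM in untreated cells and 1.69 to 1.88 CPM at 360 min. Macrophage and leukocyte markers, nearly all CD68, summed to 49.4 to 57.1 CPM in untreated cells and 51.8 to 56.6 CPM at 360 min. The part of these marker levels in the members' changes was not tested. The share of mitochondrially encoded counts split the libraries, at 3.55% to 4.39% in 7 and 2.52% to 2.74% in 5. The untreated group had replicate 1 on the high side and replicates 2 and 3 on the low side. All 10 min libraries were on the high side (3.55% to 3.87%). At 30 min replicate 1 was low and replicates 2 and 3 high, and at 360 min replicates 1 and 2 were low and replicate 3 high. The split was thus not balanced over the times.

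In untreated cells CCN2 was the most abundant of the 9 per length, at 136 ± 24 CPM per kb of exon (SD, n = 3). TAGLN followed at 32.8 ± 1.3 and CCN1 at 20.2 ± 9.8, the latter with the widest relative spread. ANKRD1 at 8.37 ± 0.81 and AJUBA at 8.32 ± 0.38 did not differ beyond their spread. LATS2 stood at 4.88 ± 0.12, and SKIL at 3.32 ± 0.17, AMOTL2 at 3.14 ± 0.5 and THBS1 at 2.85 ± 0.17 CPM per kb came last, with AMOTL2 overlapping both of its neighbours in this order. CCN1 went from the third place at 0 min to the sixth at 360 min, at 3.83 ± 0.29 CPM per kb, and AJUBA from the fifth to the third, at 10.3 ± 0.38.

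At 360 min 5 of the 9 genes had fallen and 1 had risen against untreated cells, where 18.1% of all genes tested were called, 9.19% lower and 8.89% higher. CCN1, CCN2, ANKRD1, TAGLN and SKIL fell, AJUBA rose, and AMOTL2, LATS2 and THBS1 did not pass the test. The median log2 fold change was -0.48 over the 9 genes and 0 over all genes tested. At 30 min 1 of the 9 was called, CCN1, which fell (0.765% of all genes were called, 0.585% lower). At 10 min edgeR called 0 of the 9 (0.0169% of all genes), DESeq2 called 1 and limma voom 0, and 2 had an unadjusted p under 0.05 (10.9% of all genes). All libraries lay below all untreated ones for 3 of the 9 genes at 10 min, 6 at 30 min and 6 at 360 min, against 7.72%, 7.5% and 17.3% of all genes. In these bulk libraries, fewer cells expressing a gene and less RNA per cell cannot be told apart.

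**Figure D1:**
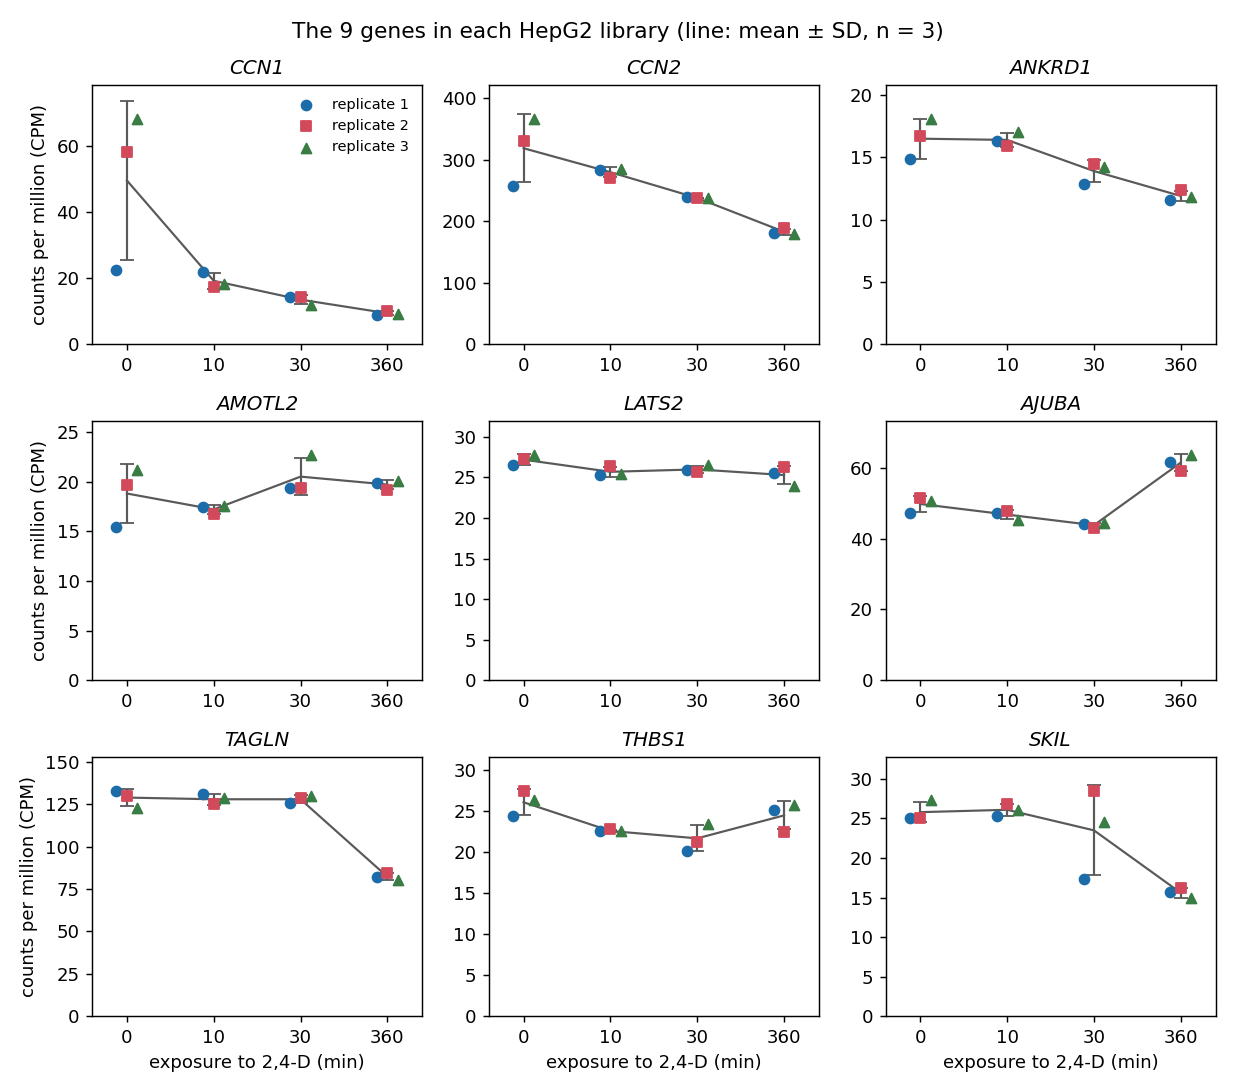
Level of each gene in every library, in CPM on axes that start at 0, against exposure time in min (times evenly spaced, not to scale). Points are single libraries by replicate number, and lines join group means with SD bars (n = 3). CCN1 shows untreated replicate 1 at 22.4 CPM beside 58.2 and 68.3, TAGLN drops only at 360 min, and AJUBA is highest there.

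CCN1 was at 22.4, 58.2 and 68.3 CPM in untreated replicates 1, 2 and 3. It was at 21.9, 17.3 and 18.3 CPM at 10 min, at 14.3, 14.4 and 11.9 CPM at 30 min, and at 8.92, 10.2 and 9.07 CPM at 360 min. All 9 exposed libraries lay below the lowest untreated one, and no exposure group overlapped another. CCN1 fell by 1.87 at 30 min (SE 0.29, adjusted p = 0.0075), that is 3.67-fold, and by 2.42 at 360 min (SE 0.3, adjusted p = 0.00014), that is 5.34-fold. At 10 min it stood at -1.38 ± 0.29, which did not pass (adjusted p = 0.13), although DESeq2 called it (adjusted p = 0.014).

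The size of the change in CCN1 depended on the untreated libraries, which spread more for this gene (coefficient of variation 48.7%) than the exposed groups (7.2% to 12.8%). Without untreated replicate 1, CCN1 was at -1.72 at 10 min (adjusted p = 1e-05). With replicate 1 as the lone untreated library, which the fit then assumes to vary like the exposed groups, it was at -0.21 at 10 min (adjusted p = 0.65), at -0.72 at 30 min (adjusted p = 0.084) and at -1.26 at 360 min (adjusted p = 6e-04). These p-values, and those given for other genes against replicate 1 alone, rest on that assumption, since a single library has no spread of its own. Replicate 1 also had the highest mitochondrial share of the untreated libraries (4.39% against 2.61% and 2.66%). With a term for that split, CCN1 fell by 1.61 at 30 min (adjusted p = 0.013) and by 2.32 at 360 min (adjusted p = 7e-05). The call at 30 min was lost when the 2 groups were fitted alone (-1.88, adjusted p = 0.077).

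CCN2, the closest relative of CCN1 in the set, was at 258, 331 and 367 CPM in the untreated libraries, again lowest in replicate 1. It was at 283, 270 and 286 CPM at 10 min, between 238 and 239 CPM at 30 min, and at 181, 189 and 179 CPM at 360 min. The 10 min libraries overlapped the untreated ones, while those at 30 and 360 min lay below them. CCN2 fell by 0.80 at 360 min (SE 0.09, adjusted p = 6.7e-05), a 1.74-fold drop, and by 0.38 from 30 to 360 min (SE 0.09, adjusted p = 0.008). At 30 min against untreated cells it stood at -0.42 ± 0.09 (adjusted p = 0.053), just outside the threshold, and was called under 5 of 16 alternatives, DESeq2 (adjusted p = 0.0066) and limma voom (adjusted p = 0.047) among them. Without untreated replicate 1 that value was -0.55 (adjusted p = 5.4e-05), and against replicate 1 alone -0.11 (adjusted p = 0.53). Against replicate 1 alone the change at 360 min was -0.5 (adjusted p = 0.00024, with the spread taken from the exposed groups). An antisense RNA gene, AL133346.1, overlaps CCN2 at its start on the opposite strand, and the use of strand in counting is not given in the sources used here.

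ANKRD1 was at 14.9, 16.7 and 18.1 CPM in untreated cells, at 16.3, 15.9 and 17 at 10 min, at 12.9, 14.5 and 14.2 at 30 min, and at 11.6, 12.4 and 11.8 CPM at 360 min. Its 30 and 360 min libraries lay below all untreated ones and did not overlap each other. ANKRD1 fell by 0.48 at 360 min (SE 0.08, adjusted p = 0.00085) and stood at -0.26 ± 0.07 at 30 min (adjusted p = 0.22). From 30 to 360 min it stood at -0.22 ± 0.08 (adjusted p = 0.052), a value called under 6 of 15 alternatives, DESeq2 and limma voom among them (adjusted p 0.038 and 0.045).

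AMOTL2, LATS2 and AJUBA, the members that act on the Hippo pathway itself, did not pass edgeR's test over all 12 libraries in the lower direction in any comparison. AMOTL2 was at 15.4, 19.7 and 21.2 CPM in untreated cells and at 19.9, 19.2 and 20.1 CPM at 360 min, so that the groups overlapped. Its change at 360 min was 0.07 ± 0.1 (95% interval -0.16 to 0.29, adjusted p = 0.7). Against untreated replicate 1 alone AMOTL2 stood at 0.36 (adjusted p = 0.045, with the spread taken from the exposed groups), and without that replicate at -0.06. LATS2 had group means between 25.3 and 27.2 CPM. It was at 26.5, 27.3 and 27.8 CPM in untreated libraries and at 25.5, 26.3 and 24 CPM at 360 min. Its change at 360 min was -0.11 ± 0.04 (95% interval -0.21 to -0.01, adjusted p = 0.11).

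AJUBA was the only member that rose. It was at 47.2, 51.6 and 50.5 CPM in untreated cells, at 47.2, 47.8 and 45.3 at 10 min, at 44, 43.1 and 44.4 at 30 min, and at 61.7, 59.2 and 63.7 CPM at 360 min. All 360 min libraries lay above every other library, and the 30 min libraries lay below all those of 0 and 10 min. AJUBA rose by 0.31 ± 0.04 at 360 min against untreated cells (adjusted p = 0.00028) and by 0.49 ± 0.04 from 30 to 360 min (adjusted p = 5e-06), where 22.7% of all genes tested were called, 11.4% higher and 11.3% lower. At 30 min it stood at -0.19 ± 0.04 (adjusted p = 0.072), a value that DESeq2 (adjusted p = 0.014) and the omission of untreated replicate 1 (adjusted p = 0.02) called lower.

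TAGLN had the smallest p of the 9 genes at 360 min and was not called at 10 or 30 min. It was at 133, 130 and 123 CPM in untreated cells, between 125 and 131 CPM at 10 min and between 126 and 130 CPM at 30 min. At 360 min it was at 82.4, 84.4 and 80.2 CPM, below every other library. TAGLN fell by 0.65 against untreated cells (SE 0.04, adjusted p = 2.3e-07), a 1.57-fold drop, and by 0.64 from 30 to 360 min (SE 0.04, adjusted p = 1.7e-07). At 10 and 30 min its change was -0.01, with 95% intervals of -0.09 to 0.08 and -0.09 to 0.07. The fall kept its size, between -0.69 and -0.63, under all 16 alternatives. Markers of smooth muscle, in which TAGLN is abundant, summed to 48.6 to 55.8 CPM in untreated cells and 57.2 to 61.5 CPM at 360 min. ACTA2 made up nearly all of this, while DES, CNN1 and LMOD1 reached at most 0.136 CPM in any library and MYH11 0.956 CPM. The part of this sum in the change of TAGLN was not tested. The protease gene PCSK7 overlaps the 3′ end of TAGLN on the opposite strand. PCSK7 stood at 47.5 ± 0.75 CPM in untreated cells and 46.3 ± 1.1 CPM at 360 min (log2 fold change -0.04 ± 0.04, adjusted p = 0.57).

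THBS1 was at 24.4, 27.5 and 26.4 CPM in untreated cells, between 22.6 and 22.8 at 10 min, at 20.2, 21.3 and 23.4 at 30 min, and at 25.2, 22.5 and 25.8 CPM at 360 min. The 10 and 30 min libraries lay below all untreated ones and the 360 min libraries overlapped them. Its change was -0.21 ± 0.07 at 10 min (adjusted p = 0.3), -0.28 ± 0.07 at 30 min (adjusted p = 0.097) and -0.09 ± 0.07 at 360 min (adjusted p = 0.4). The value at 30 min was called by DESeq2 (adjusted p = 0.011) and limma voom (adjusted p = 0.041). From 30 to 360 min THBS1 stood at 0.19 ± 0.07 (adjusted p = 0.062), which the same tools called higher (adjusted p 0.04 and 0.023). FSIP1 and 1 antisense RNA gene overlap THBS1 on the opposite strand, and each had at most 67 counts over the 12 libraries.

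SKIL was at 25, 25.1 and 27.3 CPM in untreated cells, at 25.3, 26.8 and 26.1 at 10 min, at 17.3, 28.5 and 24.6 at 30 min, and at 15.7, 16.2 and 14.9 CPM at 360 min. All 360 min libraries lay below every other library. Replicate 1 at 30 min was low, and it was also the 30 min library with the lowest mitochondrial share (2.74%), whose part in this was not tested. The 30 min group thus spread over 24.3% (coefficient of variation) against 2.87% to 5.11% in the other groups. SKIL fell by 0.72 at 360 min (SE 0.13, adjusted p = 0.0022), a 1.65-fold drop, and by 0.58 from 30 to 360 min (SE 0.13, adjusted p = 0.0066). The latter ranged from -0.77 (without 30 min replicate 1) to -0.41 over the omission of single libraries. Against untreated replicate 1 alone the change at 360 min was -0.68, close to that against all 3 libraries (adjusted p = 0.054, with the spread taken from the exposed groups).

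**Figure D2:**
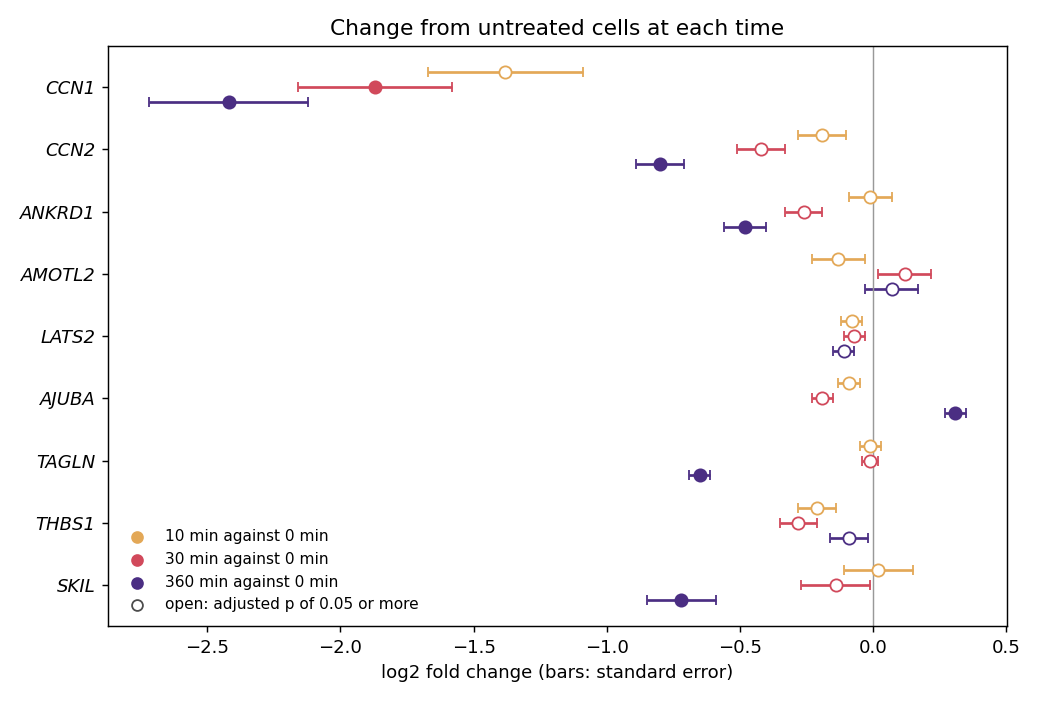
Log2 fold change of each gene against untreated cells after 10, 30 and 360 min, with SE bars; filled points had an adjusted p under 0.05. At 360 min CCN1 (-2.42), CCN2 (-0.80), ANKRD1 (-0.48), TAGLN (-0.65) and SKIL (-0.72) are filled on the left and AJUBA (0.31) on the right, and at 30 min only CCN1 is filled.

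From 30 to 360 min 3 of the 9 fell, CCN2, TAGLN and SKIL, and 1 rose, AJUBA, where 22.7% of all genes tested were called, 11.3% lower and 11.4% higher. DESeq2 and limma voom each called 6 of the 9, and over all genes called 4190 and 4551, against 4034 with edgeR. CCN1 stood at -0.54 ± 0.3 over that interval (adjusted p = 0.22), with all 360 min libraries below those of 30 min. From 10 to 30 min edgeR called 0 of the 9 (0.574% of all genes), as did DESeq2 and limma voom, and 4 had an unadjusted p under 0.05 (11.9% of all genes). CCN2 was called there when the 2 groups were fitted alone (-0.23, adjusted p = 0.029). In the fit of all 12 libraries CCN1 stood at -0.49 ± 0.29 (adjusted p = 0.55) from 10 to 30 min. AMOTL2 stood at 0.25 ± 0.1 (adjusted p = 0.34), and was higher in all 30 min libraries. These comparisons share groups with those against 0 min and are not separate evidence.

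Over the 12 libraries, log2 CPM of CCN2 and ANKRD1 had a Pearson correlation of 0.96, CCN1 and CCN2 of 0.93, and ANKRD1 and SKIL of 0.89. AJUBA and TAGLN had the most negative value, -0.92, and AMOTL2 stayed between -0.26 and 0.22 with all others. Among 12436 genes whose log2 CPM averaged 1 or more, those most like CCN1 were KLF6 (0.989), FOS (0.987) and DUSP1 (0.985), a trio of immediate early genes. Nearest to CCN2 were RHOB (0.967), RGS14 (0.961) and ANKRD1 (0.958), so that 1 of its neighbours was another member. TAGLN was most like SMAD7 (0.996), an inhibitor of TGF-beta signalling, then PLP2 (0.992) and CYP24A1 (0.991). AJUBA was nearest to SRP68 (0.978), HSPH1 and PCYT1A (0.977 for both), and SKIL to MCC (0.923), FMNL2 (0.921) and FAM135A (0.919). The points share libraries and the same 4 groups, so these values describe group differences and depth as well as spread within groups.

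**Figure D3:**
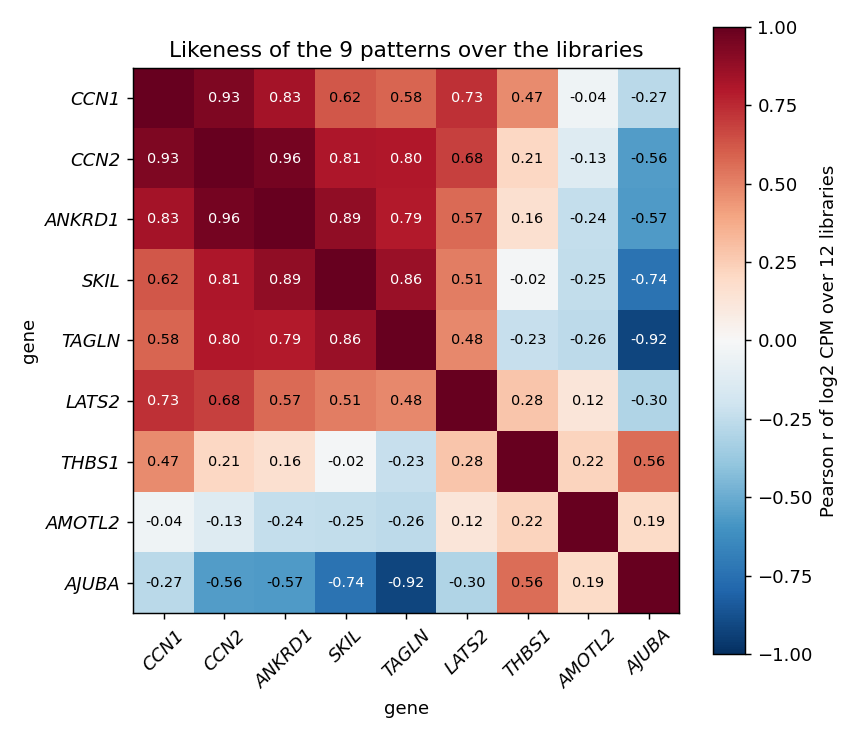
Pearson correlation of log2 CPM over the 12 libraries for each pair of the 9 genes, from blue (negative) to red (positive). CCN1, CCN2, ANKRD1, LATS2, SKIL and TAGLN are positive with one another (0.48 to 0.96), and AJUBA is blue against TAGLN (-0.92) and SKIL (-0.74).

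The other genes of these pathways were described from 9 lists chosen with earlier results of these data known. At 10 min no gene of these lists passed. At 30 min the only non-member called in any list was NEDD9, a scaffold protein of focal adhesions and TGF-beta target. It fell by 0.35 (SE 0.06, adjusted p = 0.013), with 188 ± 16 CPM untreated and 148 ± 3.7 CPM at 30 min. NEDD9 was called under 10 of 16 alternatives, and not against untreated replicate 1 alone. The low level was seen at 30 min only, with 202 ± 14 CPM at 10 min and 204 ± 2 CPM at 360 min. From 10 to 30 min NEDD9 stood at -0.46 ± 0.06 (adjusted p = 0.0028), and from 30 to 360 min at 0.47 ± 0.06 (adjusted p = 1e-04).

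Among YAP and TAZ targets other than the members, 3 of 14 tested rose and 2 fell at 360 min, against 8.89% and 9.19% of all genes, with a median of -0.01. The receptor tyrosine kinase gene AXL fell by 0.69 (SE 0.11, adjusted p = 0.00081); its level was 12.7 ± 0.85 CPM before and 7.81 ± 1 CPM at 360 min. The ecto-nucleotidase gene NT5E rose by 0.19 ± 0.04 (adjusted p = 0.0055). The other 3 called were ARHGEF17 (0.2 ± 0.05, adjusted p = 0.016), DOCK5 (-0.15 ± 0.04, adjusted p = 0.019) and PTPN14 (0.25 ± 0.07, adjusted p = 0.023), the last named after its value was seen and called under 11 of 16 alternatives. The called genes of this list thus lay on both sides of 0.

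Of 20 tested Hippo pathway components 7 fell and 0 rose at 360 min, against 9.19% and 8.89% of all genes, with a median of -0.02. WWTR1, which encodes TAZ, fell by 0.23 (SE 0.03, adjusted p = 6e-04), being 81.8 ± 3.5 CPM untreated and 69.7 ± 1.1 CPM exposed. TEAD4, a DNA-binding partner of YAP and TAZ, fell by 0.31 (SE 0.03, adjusted p = 3.9e-05), being 73.3 ± 0.93 CPM untreated and 59 ± 0.81 CPM exposed. TEAD2 (-0.36 ± 0.08, adjusted p = 0.007) and the TEAD cofactor gene VGLL4 (-0.17 ± 0.04, adjusted p = 0.017) were also lower, and lost the call under 1 and 4 of 16 alternatives. TEAD3 (-0.14, adjusted p = 0.043) and MAP4K4 (-0.1, adjusted p = 0.042) lost it under 8 and 9 of 16. TEAD3 and MAP4K4 were named after their values were seen. YAP1 stood at -0.07 ± 0.04 (adjusted p = 0.2), from 239 ± 7.4 to 227 ± 4.6 CPM.

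Of 24 tested SRF pathway genes other than TAGLN 9 fell and 3 rose at 360 min, against 9.19% and 8.89% of all genes, with a median of -0.07. PDLIM7, an adaptor of actin filaments, fell by 0.41 (SE 0.04, adjusted p = 3.9e-05) and the myosin light chain gene MYL9 by 0.34 (SE 0.05, adjusted p = 0.00093). The tropomyosin gene TPM1 fell by 0.16 (SE 0.03, adjusted p = 0.0034). The 3 that rose were VCL, ACTA2 and MRTFB, at 0.18, 0.17 and 0.15. Of these, ACTA2 and MRTFB were not called under 7 of 16 alternatives each. Among those that fell, MYH9 (-0.13) and CALD1 (-0.11) were not called under 6 of 16 alternatives each. VCL, ACTA2, MRTFB, MYH9 and CALD1 were named after their values were seen. SRF itself stood at -0.03 ± 0.04 (adjusted p = 0.67; 0.03 against untreated replicate 1 alone).

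In the TGF-beta pathway the ligand gene TGFB1 fell by 0.49 at 360 min (SE 0.05, adjusted p = 2.6e-05), being 101 ± 3.1 CPM untreated and 71.8 ± 4.4 CPM exposed, and INHBE, an activin subunit gene, rose by 0.3 ± 0.07 (adjusted p = 0.0069), the 2 called among 5 ligand genes. Of 7 receptor genes TGFBR2 rose by 0.38 ± 0.04 (adjusted p = 4.4e-05) and the coreceptor gene ENG fell by 0.74 (SE 0.06, adjusted p = 1.4e-05). SMAD7, which blocks the receptors, fell by 1.08 (SE 0.06, adjusted p = 1.4e-07), being 24.9 ± 1.6 CPM untreated and 11.8 ± 0.38 CPM exposed, having stood at 24.9 ± 0.94 and 25.4 ± 0.44 CPM at 10 and 30 min. SKI, the closest relative of SKIL, fell by 0.23 (SE 0.04, adjusted p = 0.0011). SMAD3 stood at -0.11 ± 0.04 (adjusted p = 0.093). Of 10 transducers and inhibitors other than SKIL 3 fell and 0 rose. These counts, and those of the ligand and receptor genes, stand beside 9.19% of all genes tested lower and 8.89% higher.

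Of 12 tested TGF-beta targets other than THBS1 7 fell and 1 rose at 360 min, against the same shares of all genes, with a median of -0.17. LMCD1 fell by 0.55 (SE 0.07, adjusted p = 0.00019) and TIMP3, an inhibitor of matrix proteases, rose by 0.33 ± 0.05 (adjusted p = 0.00065). TGFBI, which encodes a secreted matrix protein, fell by 0.2 (SE 0.04, adjusted p = 0.002). Of 9 receptor genes for CCN and thrombospondin proteins 3 fell and 0 rose, among them the integrin gene ITGB5 (-0.24 ± 0.04, adjusted p = 0.0011). Of the 18 paralogs of the members 8 had enough counts to be tested, SKI and WTIP fell (both are also counted in a list above), and the CCN family genes CCN3, CCN4, CCN5 and CCN6 did not pass the filter on low counts.

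**Figure D4:**
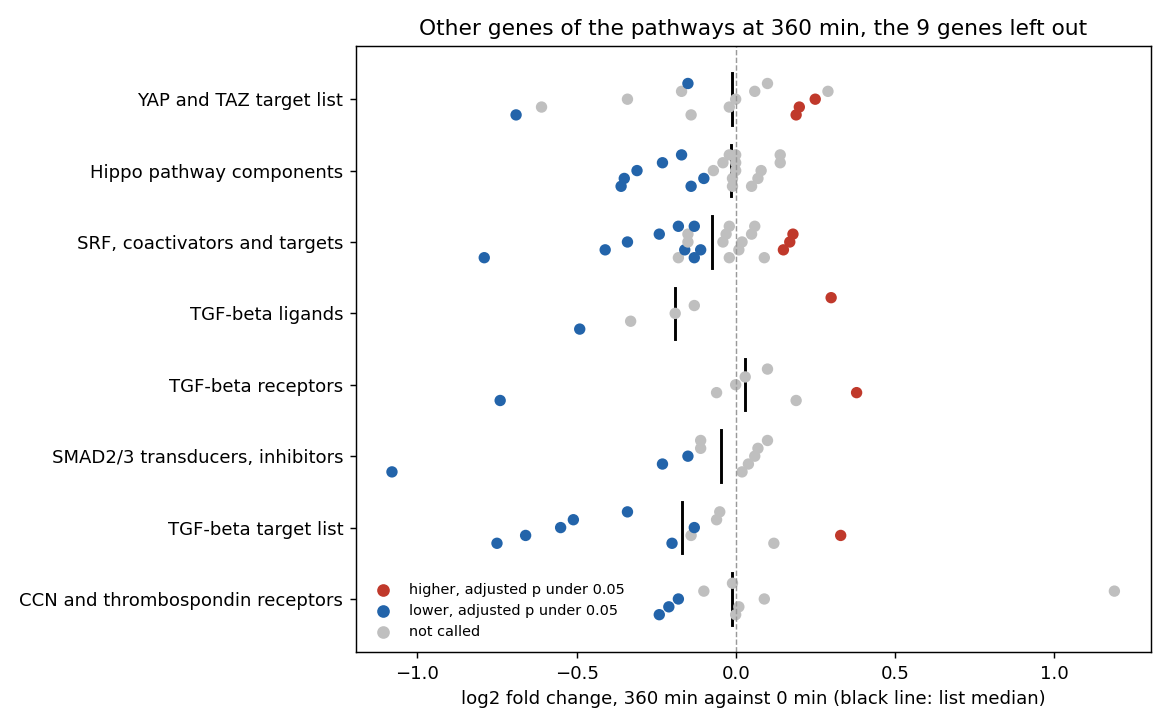
Log2 fold change at 360 min against untreated cells of every tested gene in 8 pathway lists, the 9 members left out; red and blue points had an adjusted p under 0.05, gray points did not, and black lines are list medians. The medians lie between -0.19 and 0.03, and SMAD7 at -1.08 is the lowest point.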

How the data were processed

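The deposited file is 1 matrix of raw read counts (whole numbers, by gene) covering 12 libraries from HepG2 cells; the RNA was captured on poly(dT) beads, per the labels' protocols. HISAT2, DESeq2 and GRCh38 are listed in the submitters' processing notes without a role. The counting program, its annotation and its strand setting: not given in the sources used here. Column titles gave time and replicate number. The labels speak of triplicates and do not say that these were separate cultures, so p-values measure the spread between these samples, which may be technical.

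The deposited counts went into edgeR 4.0.16 (R 4.3.3): filterByExpr by group kept 17779 of 60612 genes, libraries were scaled by TMM, and a quasi-likelihood model held 1 coefficient per group over all 12 libraries (8 residual degrees of freedom). Tests were two-sided with Benjamini-Hochberg adjustment over all genes tested. SE is the absolute log2 fold change divided by the square root of F, and 95% intervals use a t distribution. On simulated data for 360 min against 0 min (17555 genes), the test recovered 39 of 67 genes with a 1.3-fold change, 55 of 66 with a 1.5-fold change and 66 of 67 with a 2-fold change. The simulation changed few genes, all above a minimum level, and gave each gene the same spread in all groups. Its rates do not cover a gene such as CCN1, whose untreated libraries spread more than the exposed ones. Alternatives were DESeq2 1.42.0, limma voom (limma 3.58.1), scaling by RLE or by total counts, dropping the filter or tightening it (CPM 1 or more in 3 or more libraries), fitting only the compared groups, blocking on replicate number, a term for the mitochondrial split, untreated replicate 1 alone, and omitting each library.

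Exon unions and overlaps come from GENCODE 29 on GRCh38, matched by Ensembl ID (96.34% of the IDs), and promoter windows from RefSeq on GRCh38.p14.

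The members, lists and alternatives were chosen with earlier results of these data known. The text names all 9 members, up to 4 called genes per list with the smallest p, YAP1, WWTR1, SRF and SMAD3, and the 3 genes nearest to a member by Pearson correlation; others are said to be named after their values were seen. One gene that this rule would name is not reported here.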

Additional observations from a re-analysis of the deposited data

How the results depend on the processing

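At 360 min against 0 min 6 members were called under every alternative, with 1 exception in membership: untreated replicate 1 alone ended the call of SKIL and added AMOTL2. At 30 min the count of 1 became 4 with DESeq2, 3 with limma voom, 2 without a filter and 2 with the stricter filter, and 0 with the compared groups alone or against untreated replicate 1 alone. At 10 min DESeq2 called 1 member, and from 10 to 30 min the compared groups alone gave 1. Over the omission of single libraries, members called ranged from 0 to 2 at 10 min, 1 to 3 at 30 min (the highest without 0 min replicate 1 in both), 6 to 6 at 360 min, 0 to 0 from 10 to 30 min and 4 to 5 from 30 to 360 min.

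Over all genes, 3 were called at 10 min, 136 at 30 min, 3215 at 360 min, 102 from 10 to 30 min and 4034 from 30 to 360 min. DESeq2 gave 174 at 10 min, 271 at 30 min and 290 from 10 to 30 min, and limma voom gave 3, 170 and 72. At 10 min the count was 9 without a filter and 7 with the compared groups alone. The latter gave 67 at 30 min. Untreated replicate 1 alone gave 10, 52 and 1751 at 10, 30 and 360 min. Omissions gave 1 to 25 at 10 min, 61 to 163 at 30 min, 2281 to 2714 at 360 min, 39 to 83 from 10 to 30 min and 3024 to 3481 from 30 to 360 min. An unadjusted p under 0.05 was found for 10.9% of genes at 10 min.

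With the replicate number as a block 6 genes were called at 10 min; members called were 0, 1, 6, 0 and 5 in the 5 comparisons, the added one being ANKRD1 from 30 to 360 min. Same-numbered libraries correlated at -0.05 to 0.1 in their deviations from group means, and the best differently numbered ones at -0.03 to 0.09. For 10 min against 0 min the same-numbered values were 0.04 to 0.06 and the best others -0.01 to 0.01. Values this low show no clear pairing and cannot exclude it.

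No sign changed for a member that was called in the fit of all 12 libraries. Of the differences whose sign changed, CCN2 at 10 min was called lower without 0 min replicate 1 (-0.32, adjusted p = 0.015) and AMOTL2 at 360 min higher against untreated replicate 1 alone (0.36, adjusted p = 0.045), a fit in which the lone library is assumed to vary like the exposed groups. Against untreated replicate 1 alone CCN2 was at 0.12, ANKRD1 at 0.15 and AMOTL2 at 0.17 at 10 min, and THBS1 at 0.01 and SRF at 0.03 at 360 min. With the mitochondrial term ANKRD1 was at 0 and SKIL at -0.09 at 10 min, and TAGLN at 0 from 10 to 30 min. With total counts SKIL was at -0.01 at 10 min and TAGLN at 0.02 from 10 to 30 min, as it was without a filter. Over the omissions ANKRD1 ranged from -0.08 to 0.05, TAGLN from -0.04 to 0.02 and SKIL from 0 to 0.06 at 10 min; TAGLN from -0.04 to 0.02 and SKIL from -0.31 to 0.04 at 30 min; TAGLN from -0.02 to 0.02 and SKIL from -0.33 to 0.02 from 10 to 30 min; and AMOTL2 from -0.06 to 0.16 at 360 min and from -0.09 to 0.02 from 30 to 360 min. The cause of these changes was not tested. Members had at least 343 counts in a library, the lowest depth behind any value.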
